A study of Homo sapiens with 3 samples.

Results

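The Sestrin genes SESN1, SESN2 and SESN3, together with TIGAR, DDIT4, GLS2, SCO2 and TP53INP1, encode proteins through which the tumor suppressor p53 is known to act on growth signaling, redox balance and mitochondrial metabolism. They were found by gene name among the non-control probes of the arrays, where TIGAR carries its older name C12orf5, and made up 8 of the 27274 gene names. TP53INP1 was read by 2 probes and each of the others by 1 probe. After etoposide, TP53INP1, GLS2, SESN1 and TIGAR gave signals more than 2-fold above control at both doses, DDIT4 was 4.93-fold lower at the high dose, SESN2 and SCO2 stayed within 2-fold at both doses, and SESN3 was not well above background in any condition.

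p53 is a transcription factor that is stabilized after DNA damage. Besides arresting or killing cells, it raises genes that restrain the growth kinase mTORC1 (the Sestrins and DDIT4), divert glucose toward the pentose phosphate pathway (TIGAR), feed glutamine into glutathione and the mitochondria (GLS2), build cytochrome c oxidase (SCO2), and link p53 to autophagy and cell death (TP53INP1). Several of these genes have other inducers as well. SESN2 and DDIT4 are targets of the amino acid and endoplasmic reticulum stress factor ATF4, DDIT4 also of hypoxia factors, and SESN3 of FOXO factors.

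HepG2, an established line from a human hepatocellular carcinoma with wild-type p53, was grown in RPMI 1640 with fetal bovine serum. Cells were given etoposide, a topoisomerase II poison that breaks DNA, at 0 μM (control), 10 μM (low dose) or 100 μM (high dose) for 30 h, with the low dose meant to favor senescence and the high dose apoptosis. Total RNA of each condition was labeled with Cy3 and hybridized to 1 Agilent array of 60-base probes. The labels call the control untreated, whereas the paper's table of the arrays names it DMSO. With 1 cell line and 1 array per condition, no difference could be checked against replicates or given a p-value, and both doses are set against the same control array. Fewer cells expressing a gene and less RNA per cell cannot be told apart in such bulk RNA.

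All values rest on the deposited intensity of each spot after background subtraction, called the signal. Fold changes are ratios of signals scaled to the 75th percentile of each array, 514.0 in control cells, 536.4 with 10 μM and 432.3 with 100 μM. Between 19836 and 20153 of 34127 probes were well above background by the scanner software's call, and no spot was saturated. All 9 liver markers examined, among them albumin and alpha-fetoprotein, were well above background on every array. Of markers of other cells, those of fibroblasts were well above background in 0 of 5 cases (signals 4.18 to 16.8). The 3 endothelial markers summed to 529.7, 363.0 and 353.8 in control, low-dose and high-dose cells, with VWF well above background at the high dose alone. All 4 leukocyte markers were well above background and summed to 1620, 2050 and 2841, with CD14 at 520.6, 1184 and 1847. Their part in the results below was not tested.

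Of the probes themselves, 2 are shown as examples of a gene that was higher at both doses and of one that was not: the probe of GLS2, which gave the largest change of any of these genes read by 1 probe at the low dose, and the probe of SCO2, which stayed within 2-fold. The GLS2 probe lies at chr12:55152187-55152246 and the SCO2 probe at chr22:49309044-49309103, both on the minus strand of hg18, the build of the files.
GLS2 probe: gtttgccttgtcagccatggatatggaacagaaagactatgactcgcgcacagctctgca
SCO2 probe: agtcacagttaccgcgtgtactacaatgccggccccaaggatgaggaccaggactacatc
The other probes lie at chr6:109415170-109415229 (SESN1, minus strand), chr1:28480781-28480840 (SESN2, plus), chr11:94557236-94557295 (SESN3, minus), chr12:4339319-4339378 (TIGAR, plus) and chr10:73705369-73705428 (DDIT4, plus). The files do not say which exon or UTR a probe lies in.

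Sequence around transcription start sites was also searched, because 4 of these genes were higher together at both doses. RefSeq on GRCh38.p14 gave 8 start sites for 6 of the 8 genes (SESN1, SESN2, SESN3, TIGAR, DDIT4 and GLS2), each with 250 bases before the start and 50 after it, and SESN1 had 3 of these sites. The p53 half-site, the 10-base unit of a p53 response element, was matched on both strands to its consensus without mismatches. It was present at 1 of the 8 start sites, a start site of SESN1, beginning 49 bases before the start. The same match occurred in 6.63% of all 35116 promoters of this length. That SESN1 match, in capitals, is shown with 10 bases on each side, at chr6:109009018-109009047 on the minus strand of GRCh38.p14.
SESN1: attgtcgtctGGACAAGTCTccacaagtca
The 250 bases before the start sites of TIGAR (chr12:4320963-4321212, plus strand) and GLS2 (chr12:56488162-56488411, minus strand) are printed as the corresponding regions of genes that were higher at both doses. Neither holds the p53 half-site, and 76.8% and 66.4% of their bases are G or C, respectively.
TIGAR: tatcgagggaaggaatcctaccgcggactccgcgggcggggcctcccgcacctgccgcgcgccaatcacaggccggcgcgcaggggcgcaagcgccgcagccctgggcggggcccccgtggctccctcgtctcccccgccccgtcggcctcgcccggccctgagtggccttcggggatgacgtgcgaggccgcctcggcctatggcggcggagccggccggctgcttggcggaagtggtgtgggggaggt
GLS2: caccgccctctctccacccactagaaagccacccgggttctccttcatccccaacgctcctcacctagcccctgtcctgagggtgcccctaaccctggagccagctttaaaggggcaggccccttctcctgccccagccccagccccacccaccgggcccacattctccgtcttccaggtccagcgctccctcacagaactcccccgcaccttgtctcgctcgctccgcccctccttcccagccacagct
TGATGCAA, a core form of the element bound by ATF4 with a C/EBP partner, was searched in the same way. It was in none of the 8 windows and in 0.866% of all promoters. Absence of these letters from a window of this length says nothing about binding elsewhere in the gene.

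**Figure D1:**
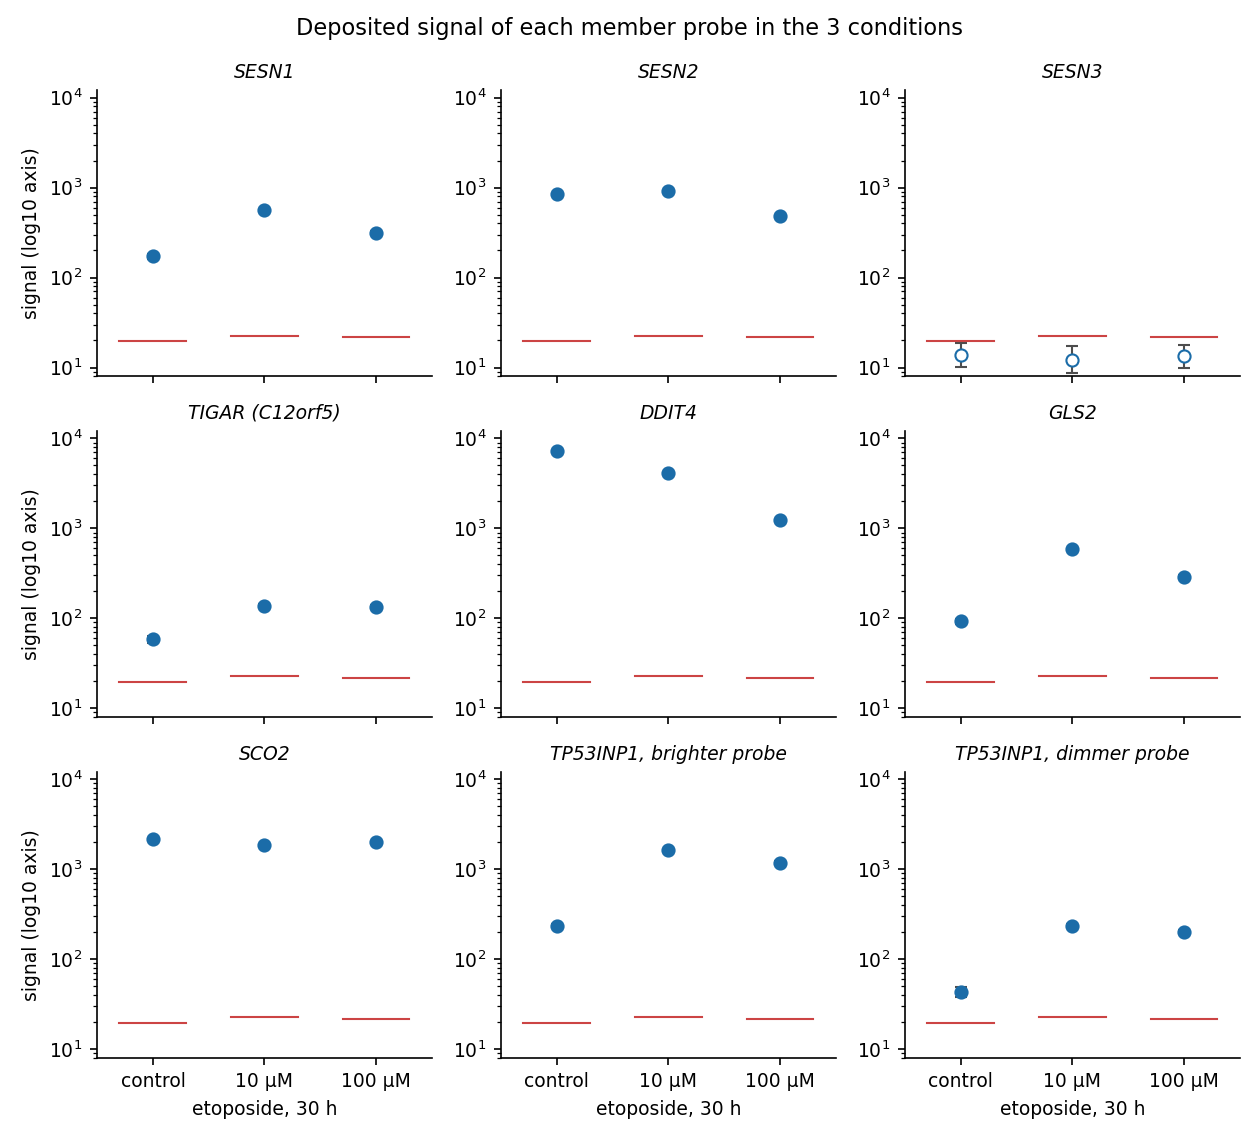
Deposited signal (log10 axis, before scaling between arrays) of each of the 9 probes in control cells and after 10 or 100 μM etoposide for 30 h; filled points were well above background, open points were not, bars are the spot SD, mostly smaller than the point, and the red lines mark the lowest signal well above background on each array. GLS2, SESN1, TIGAR and both TP53INP1 probes lie lowest in control cells, DDIT4 descends from 7297 to 1245, and SESN3 lies under the red lines throughout.

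Of the 8 genes, 7 could be compared between conditions. At the low dose, 4 of them (57.1%) were more than 2-fold above control, where 3.37% of the 16719 genes tested were, and 0 were more than 2-fold below it, where 1.6% of genes were. At the high dose the same 4 genes were more than 2-fold above control, against 6.76% of 16984 genes, and DDIT4 alone was more than 2-fold below it, against 3.66%. The median log2 fold change of the 7 genes was 1.17 with 10 μM and 1.12 with 100 μM, while the medians over all genes measured on both arrays were -0.034 and 0.086. Set directly against the high dose, the low dose gave a more than 2-fold higher signal for 1 of the 7 genes, DDIT4 (3.63% of 16793 genes tested), and a more than 2-fold lower signal for 0 of them (3.95%). The 7 genes then had a median of 0.53, and all genes one of -0.095.

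Values at the high dose depend on how the arrays are scaled to each other. Without scaling, the all-gene median at the high dose over control lay 0.25 lower on the log2 scale, and with median scaling it lay 0.29 lower. Higher genes made up 64.9% of all genes past 2-fold in that comparison, but 37.2% without scaling, 33.2% with median scaling, 45.0% with spike-in scaling and 49.8% with quantile normalization. For the low dose over the high dose the share was 47.9%, and 77.7%, 74.6%, 71.1% and 65.4% in the same order. The low dose over control was less affected, the share lying between 66.1% and 73.3% over all 7 scalings.

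**Figure D2:**
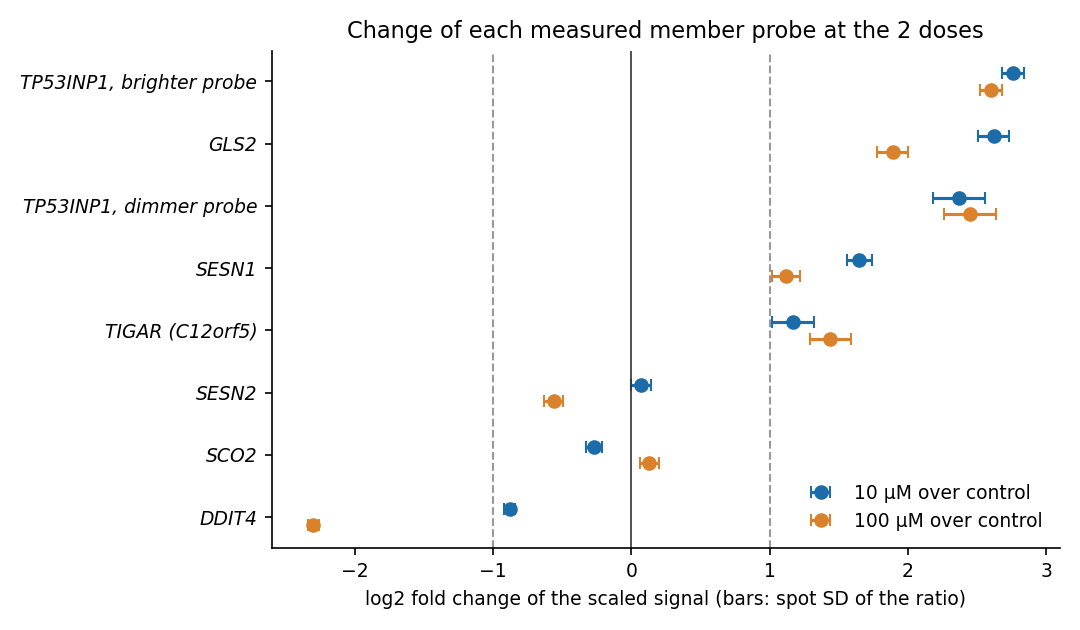
Log2 fold change of the scaled signal over control for each probe well above background, at 10 μM (blue) and 100 μM (orange); bars are the spot SD of the ratio, and dashed lines mark a 2-fold change. Both TP53INP1 probes, GLS2, SESN1 and TIGAR lie right of the upper line at both doses, and DDIT4 lies left of the lower line at 100 μM.

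The Sestrins are leucine- and stress-responsive proteins that restrain mTORC1 by way of the GATOR complexes and help to keep peroxiredoxins reduced. SESN1, first described as the p53 target PA26, had signals of 171.6 in control cells, 560.2 with 10 μM and 313.1 with 100 μM. It was lowest in control cells and highest at the low dose. Relative to control, it was 3.129-fold higher with 10 μM (log2 1.65 ± 0.09, spot SD of 1 array each) and 2.17-fold higher with 100 μM (1.12 ± 0.10). The spot SD is the spread of repeated spots on the same array and does not cover cultures or RNA preparations. Of 15449 genes measured at the low dose, 112 had a larger positive change. At the high dose 547 of 15466 did, and the SESN1 change there fell short of 2-fold without scaling (1.825-fold), with median scaling (1.776), with spike-in scaling (1.927) and with normexp background correction (1.767).

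SESN2, the family member best known as a target of ATF4, gave 838.9 in control cells, 919.1 with 10 μM and 478.6 with 100 μM. The low dose thus differed little from control and the high dose was the lowest of the 3 arrays. On the log2 scale the differences from control were 0.07 ± 0.07 with 10 μM and -0.56 ± 0.07 with 100 μM, the second being a 1.474-fold lower signal. SESN1 and SESN2 therefore differed in direction at the high dose. In the direct comparison of doses, SESN1 was 1.442-fold and SESN2 1.548-fold higher at the low dose.

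SESN3, the Sestrin known as a FOXO target, gave signals of 13.78, 12.19 and 13.34 in control, low-dose and high-dose cells. The lowest signals well above background on those arrays were 19.51, 22.65 and 21.65, so no fold change is given for SESN3.

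DDIT4, also called REDD1, restrains mTORC1 through the TSC1 and TSC2 complex. Its probe was printed 10 times on each array. In control cells the spots ran from 7072 to 7424 around a median of 7319. At the low dose they ran from 4022 to 4301 around 4102, and at the high dose from 1164 to 1269 around 1260. The medians fell in the order of the dose, before scaling between arrays. The spots are repeats on 1 array per condition, and the high-dose range leaves out 1 outlier spot. The probe's signal was 7297, 4136 and 1245, the high dose being averaged over 9 spots because 1 spot had been marked as an outlier. DDIT4 was 1.841-fold below control with 10 μM (log2 -0.88 ± 0.04) and 4.93-fold below it with 100 μM (-2.30 ± 0.04). The low dose was 2.678-fold above the high dose (1.42 ± 0.05), and 15376 of 15466 genes had a higher value than DDIT4 at the high dose over control.

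The other genes that set mTORC1 activity numbered 30. They included the AMP kinase subunits, the TSC genes, the Rag GTPases and the GATOR subunits. Like most genes tested, they mostly stayed within 2-fold. Of all genes tested, 3.37% were more than 2-fold higher and 1.6% lower with 10 μM, and 6.76% and 3.66% with 100 μM. These shares also stand beside the counts of the lists below. With 10 μM, 0 of the 30 were more than 2-fold higher and 1 was lower, with a median log2 fold change of 0.02. That gene was DEPTOR (DEPDC6 on the array), an inhibitory partner of mTOR, at -1.30, and the next lowest among genes well above background on both arrays was RHEB, the GTPase that activates mTORC1, at -0.48. The highest were PRKAG2, a regulatory subunit of AMP kinase, at 0.53 and RRAGD, a Rag GTPase, at 0.52. At the high dose 1 was higher and 1 lower, with a median of 0.11 that fell below 0 without scaling and with median or spike-in scaling (-0.18 at the lowest). PRKAG2 was highest there at 1.10, followed by the GATOR subunit WDR24 at 0.49. EIF4EBP1, the translational repressor that mTORC1 phosphorylates, was lowest at -1.01, followed by DEPTOR at -0.83. Without scaling and with median or spike-in scaling, 0 of the 30 were higher and 2 were lower at the high dose. With quantile normalization, 0 were higher and 0 were lower.

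Of 15 genes of the peroxiredoxin and NRF2 system, through which Sestrins act on peroxides, 14 could be compared. At the low dose 0 passed 2-fold in either direction (median -0.15, from TXNRD1 at -0.54 to HMOX1 at 0.35). At the high dose the heme-degrading enzyme HMOX1 alone was more than 2-fold higher, at 1.02, and the median was -0.14. Without scaling and with median or spike-in scaling, HMOX1 fell under 2-fold, so that 0 were higher and 1 was lower. PRDX5 stood at 0.22 and 0.37 at the low and high dose, the peroxiredoxin-reducing enzyme SRXN1 at -0.36 and -0.55, and the thioredoxin reductase TXNRD1 reached -0.89 at the high dose.

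Because SESN2 and DDIT4 are also ATF4 targets, 15 regulators and targets of ATF4 and FOXO factors were set beside them. After 10 μM, 13 of the 15 had a negative log2 fold change, 1 of them more than 2-fold, with a median of -0.49. TRIB3, a pseudokinase induced by ATF4, was the lowest at -1.09, followed by the stress factor DDIT3 at -0.98, while ATF3 stood highest at 0.93 and FOXO4 next at 0.26. After 100 μM, 13 of 15 were again negative, 8 of them more than 2-fold, and 0 were more than 2-fold higher. Their median there was -1.01, and it lay between -1.29 and -0.93 over the 7 scalings. Those 8 genes were the asparagine synthetase ASNS (-2.57), TRIB3 (-1.81), DDIT3 (-1.52), the lipoprotein receptor VLDLR (-1.33), the one-carbon and serine enzymes SHMT2 (-1.31), PHGDH (-1.22) and PSAT1 (-1.17), and ATF4 itself (-1.01). Over the scalings, 7 to 9 of the list were more than 2-fold lower. FOXO4 (0.59) and the kinase EIF2AK3 (0.08) were the highest. SESN2 (0.07 and -0.56) and DDIT4 (-0.88 and -2.30) are thus given beside a list with a negative median at both doses. Between the doses, ASNS was 3.114-fold and ATF3 2.525-fold higher with 10 μM.

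DDIT4 is a hypoxia target as well. Of 11 hypoxia genes, 8 could be compared, with 0 past 2-fold after 10 μM (median -0.10) and 1 lower after 100 μM (median -0.11). The gene past 2-fold was PDK1, the kinase that shuts pyruvate dehydrogenase, at -1.42 (-0.69 at the low dose). VEGFA stood at -0.63 at both doses, whereas ADM (0.65 and 0.19) and NDRG1 (0.58 and 0.52) were above control.

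TIGAR lowers fructose 2,6-bisphosphate and so turns glucose away from glycolysis. Its signal was 58.54 in control cells, 137.0 with 10 μM and 133.8 with 100 μM. Both treated arrays lay above control and close to each other. TIGAR was 2.242-fold higher with 10 μM (log2 1.17 ± 0.15) and 2.717-fold higher with 100 μM (1.44 ± 0.15). It was thus past 2-fold in both, but with normexp correction the changes were 1.524-fold and 1.796-fold. Between doses it was 1.212-fold lower at the low dose, a difference that ran from -0.35 to 0.03 on the log2 scale over the 7 scalings, so the order of the doses was not fixed.

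Among 23 genes of glucose entry, the control of phosphofructokinase and the pentose phosphate pathway, 22 could be compared. With 10 μM, 1 was more than 2-fold higher and 0 were lower (median -0.15). That gene was the hexokinase HK1, at 1.45, with the phosphofructokinase PFKP next at 0.19. The glucose transporter SLC2A2 (-0.92) and the gluconeogenic enzyme FBP1 (-0.82) were lowest. With 100 μM, 3 were higher and 1 was lower (median -0.06). The higher ones were HK1 (1.20), PFKFB4 (1.20) and PFKFB1 (1.16). Both PFKFB genes encode enzymes that make and break fructose 2,6-bisphosphate, the metabolite that TIGAR degrades. PFKFB1 lay close to background, at 23.00 in control cells and 43.27 at the high dose. RPIA, which interconverts pentose phosphates, was the lower one at -1.20, and PFKFB3 stood next at -0.89. Without scaling or with median scaling, 0 were higher and 2 lower at the high dose.

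GLS2 is the liver-type glutaminase of mitochondria and makes glutamate for glutathione synthesis and the citrate cycle. Its signal was 92.57 in control cells, 592.5 with 10 μM and 289.3 with 100 μM. Both treated arrays lay well above control, with the low dose highest. With 10 μM, GLS2 was 6.133-fold above control (log2 2.62 ± 0.11), and with 100 μM 3.716-fold (1.89 ± 0.11). Of all genes measured, 35 had a larger positive change with 10 μM and 92 with 100 μM. The low dose was 1.651-fold above the high dose (0.72 ± 0.07), which passed 2-fold without scaling (2.048-fold). With normexp correction GLS2 was 4.073-fold above control at the low dose.

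Of 19 other genes of glutamine and glutathione metabolism, 0 were more than 2-fold higher and 1 was lower at the low dose (median -0.25), and 1 was higher and 2 were lower at the high dose (median -0.08). GPX1, a glutathione peroxidase, was highest at the low dose at 0.97 and stood at 0.83 at the high dose. Past 2-fold were the cystine transporter SLC7A11, which supplies cysteine for glutathione and was also the lowest of the list (-1.41 and -2.72), the glutamine transporter SLC1A5 (-1.44 at the high dose), and the alanine aminotransferase GPT (1.56 at the high dose, from a signal of 22.68 close to background). GPT2, its mitochondrial relative, stood at -0.89 at the low dose. Up to 5 of the 19 were more than 2-fold lower at the high dose under other scalings.

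SCO2 carries copper to cytochrome c oxidase, the last enzyme of the respiratory chain. It gave 2157 in control cells, 1870 with 10 μM and 1987 with 100 μM. The 3 signals lay within 1.204-fold of control at both doses after scaling. Its log2 fold change was -0.27 ± 0.06 with 10 μM and 0.13 ± 0.07 with 100 μM, and the latter changed sign over the scalings, from -0.16 to 0.20. Of 21 other array genes matched by symbol or synonym to a list of cytochrome c oxidase assembly genes, 0 passed 2-fold at either dose. Without scaling and with median or spike-in scaling, 1 was lower at the high dose. The medians were -0.15 and -0.07. They include CSRP2BP (-0.27 and -0.14), matched through a synonym that a different gene may share. SURF1, an assembly factor, was highest at 0.56 and 0.74, and was followed by COA4 (CHCHD8 on the array, 0.22) at the low dose and TACO1 (0.22) at the high dose. The lowest at the low dose were COX10 (-0.44), which makes the heme of the enzyme, and COA6 (C1orf31 on the array, -0.41). The lowest with 100 μM were LRPPRC (-0.85), a mitochondrial RNA-binding protein, and COA7 (C1orf163 on the array, -0.66).

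TP53INP1 encodes a stress protein that binds kinases of p53 and takes part in autophagy. It was read by a brighter probe at chr8:96007870-96007929 and a dimmer probe at chr8:96021323-96021382, both on the minus strand of hg18. The brighter probe gave 231.9 in control cells, 1638 with 10 μM and 1180 with 100 μM. The dimmer probe gave 43.26, 232.9 and 198.7. Both probes were lowest in control cells and highest at the low dose before scaling. The brighter probe was 6.767-fold above control with 10 μM (log2 2.76 ± 0.08) and 6.048-fold with 100 μM (2.60 ± 0.08), with 28 and 24 genes showing larger positive changes. For the dimmer probe the changes were 5.158-fold (2.37 ± 0.19) and 5.462-fold (2.45 ± 0.19). Between doses the brighter probe was 1.119-fold higher at the low dose (log2 0.16 ± 0.07) and the dimmer probe 1.059-fold lower (-0.08 ± 0.09). The difference of the dimmer probe lay within its spot SD. Without scaling both probes were higher at the low dose (0.47 and 0.23), so the order of the doses was not fixed. After scaling, both probes gave a more than 5-fold change over control at both doses.

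Of 34 genes of the autophagy machinery, 32 could be compared with 10 μM, of which 1 was more than 2-fold higher and 0 were lower (median 0.0). Of the 31 compared with 100 μM, 2 were higher and 0 lower (median 0.19, ranging from -0.11 to 0.25 over the scalings). The highest at both doses was TP53INP2, the paralog of TP53INP1, with signals of 52.16, 209.3 and 266.9 and log2 fold changes of 1.94 and 2.61. ATG2A, a lipid transfer protein of the growing autophagosome, came next (1.996-fold and 2.309-fold). Its low-dose change passed 2-fold without scaling and with spike-in scaling. Its high-dose change fell under 2-fold without scaling and with median scaling. UVRAG (-0.31 and -0.47), ATG5 (-0.27 at the low dose) and ATG2B (-0.46 at the high dose) were lowest.

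**Figure D3:**
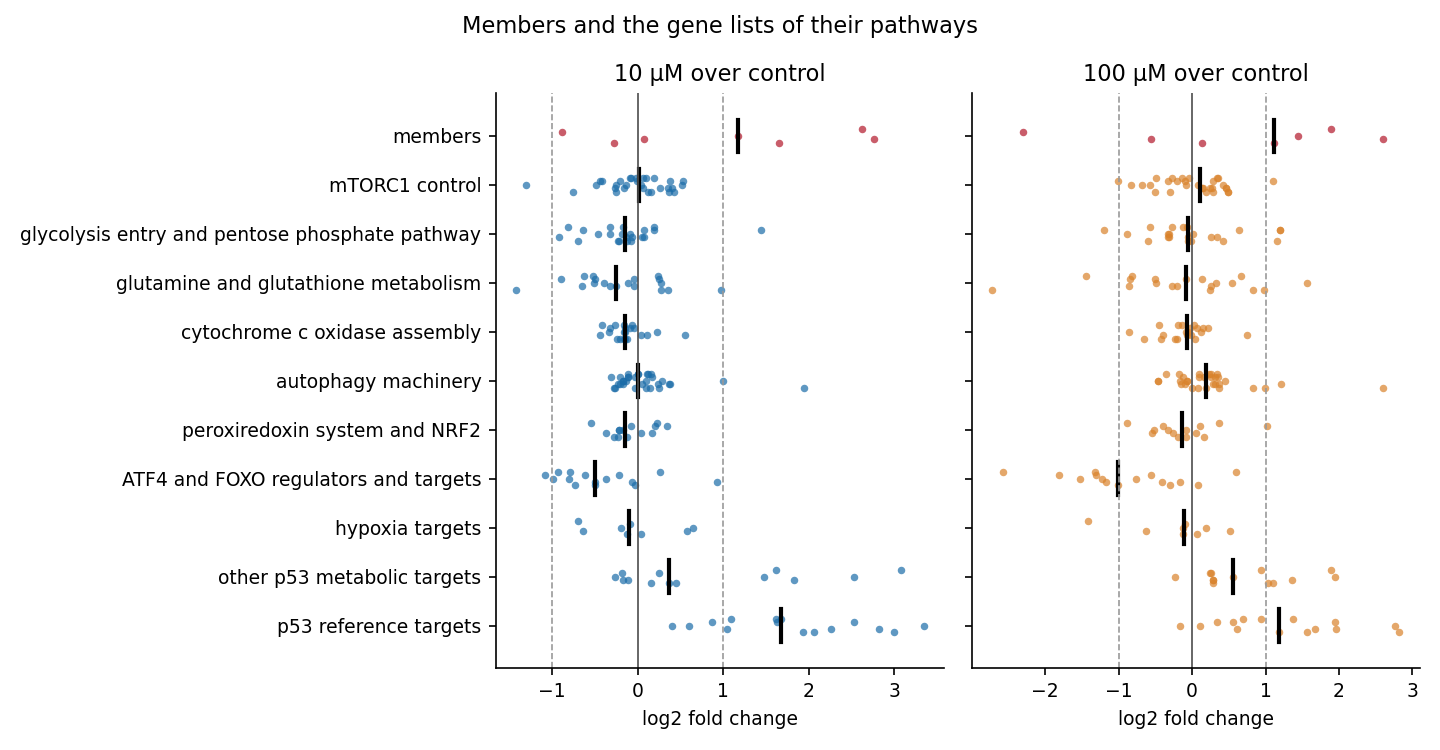
Log2 fold change over control of the 7 measured genes (red, brightest probe each) and of the genes of 10 pathway lists, at 10 μM (left) and 100 μM (right); each point is a gene, black bars are medians and dashed lines mark a 2-fold change. The medians lie above 1 for the 7 genes and the p53 reference targets at both doses, and at -1.01 for the ATF4 and FOXO list at 100 μM.

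p53 target genes outside this group were counted in the same way, from lists written with earlier results of these data known. Of 15 established p53 targets, 12 were more than 2-fold higher with 10 μM (median 1.67) and 8 with 100 μM (median 1.18), and 0 were more than 2-fold lower at either dose. The cell cycle inhibitors BTG2 (3.34 and 2.77) and CDKN1A (2.99 and 2.82) were highest. The death receptor gene TNFRSF10B (0.40 and -0.17) and the BCL2 family gene BBC3 (0.60 and 0.11) were lowest. All 15 had a higher scaled signal with 10 μM than with 100 μM, with a median of 0.53 in that comparison.

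Of 13 other metabolic genes described as p53 targets, 5 were more than 2-fold higher at each dose and 0 were lower, with medians of 0.36 and 0.56. Those past 2-fold with 10 μM were the proline dehydrogenase PRODH (3.07), the quinone oxidoreductase TP53I3 (2.53), the mitochondrial ferredoxin reductase FDXR (1.82), the ribonucleotide reductase subunit RRM2B (1.61) and the lysosomal protein DRAM1 (1.47). Those with 100 μM were TP53I3 (1.95), PRODH (1.89), FDXR (1.36), CPT1C (1.10) and the ubiquinone reductase AIFM2 (1.04). LPIN1, a phosphatidate phosphatase, was lowest at both (-0.26 and -0.23), followed by ALDH4A1 (-0.18) at the low dose and GAMT (0.24) at the high dose. CPT1C and AIFM2 fell under 2-fold at the high dose without scaling and with median or spike-in scaling, which left 3 genes. With quantile normalization CPT1C alone fell under it, which left 4. With the 75th percentile over all spots RRM2B passed 2-fold as well, which gave 6. TP53I3 and RRM2B stand in both lists.

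**Figure D4:**
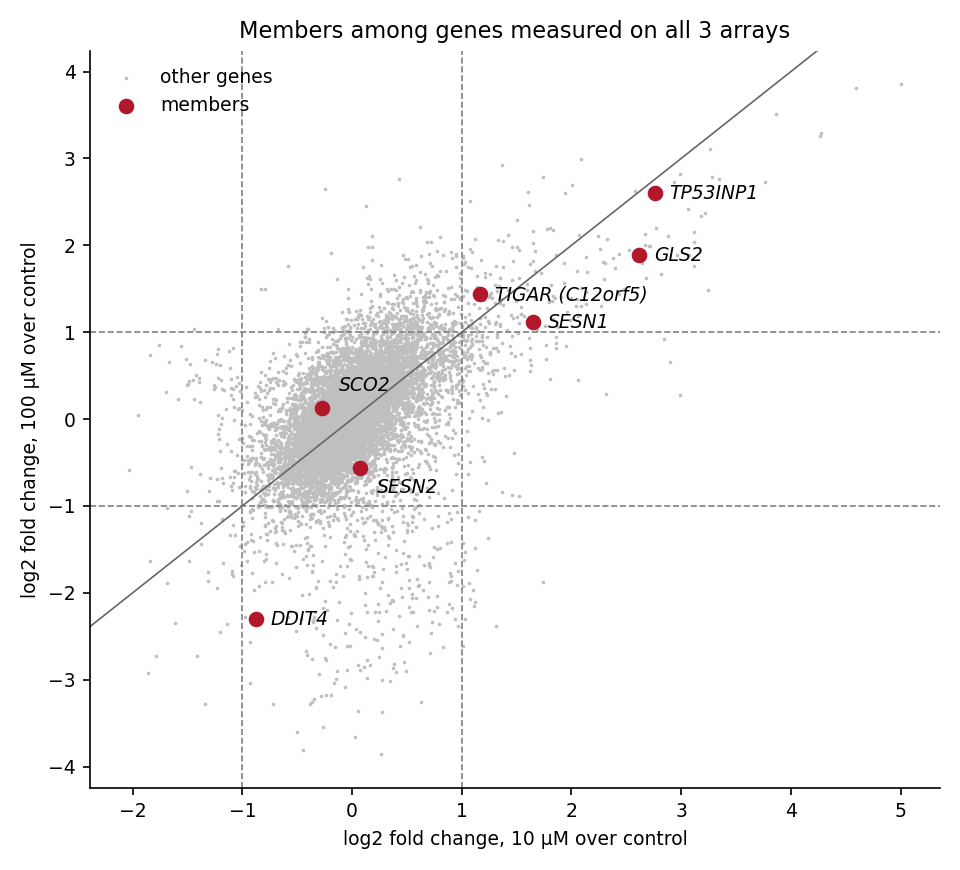
Log2 fold change at 10 μM (x axis) and 100 μM (y axis) over the same control array, for the 7 measured genes (red) and all other RefSeq mRNA genes well above background in every condition (grey); dashed lines mark 2-fold changes and the solid line equal change. TP53INP1, GLS2, SESN1 and TIGAR lie in the upper right, with TIGAR alone of these above the line (without scaling, it too lay below), and DDIT4 lies in the lower left.

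The genes whose pair of changes lay nearest to each of the 7 were named over 12047 genes with a RefSeq mRNA accession, by the distance between the 2 log2 fold changes. DDIT4 had few neighbors, with 1 gene within 0.25, the netrin receptor UNC5B at a distance of 0.103, and TUBE1 next at 0.265. TP53INP1 had 2 within 0.25, HHAT at 0.181 and CDC42BPG at 0.22. Around GLS2 there were 9, the nearest being MR1 (0.043) and SBK1 (0.105), and around SESN1 there were 16, with SULT1C4 (0.106) and TMEM173 (0.108) nearest. TIGAR had 37, led by WIPF3 (0.024) and NES (0.029). SESN2 and SCO2 had more neighbors, with 489 and 1631 genes within 0.25. The nearest were MOCOS (0.013) and XRCC5 (0.014) for SESN2 and C21orf56 (0.004) and COBRA1 (0.009) for SCO2. The distances rest on 2 values per gene that share a control array, and are a description.

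**Figure D5:**
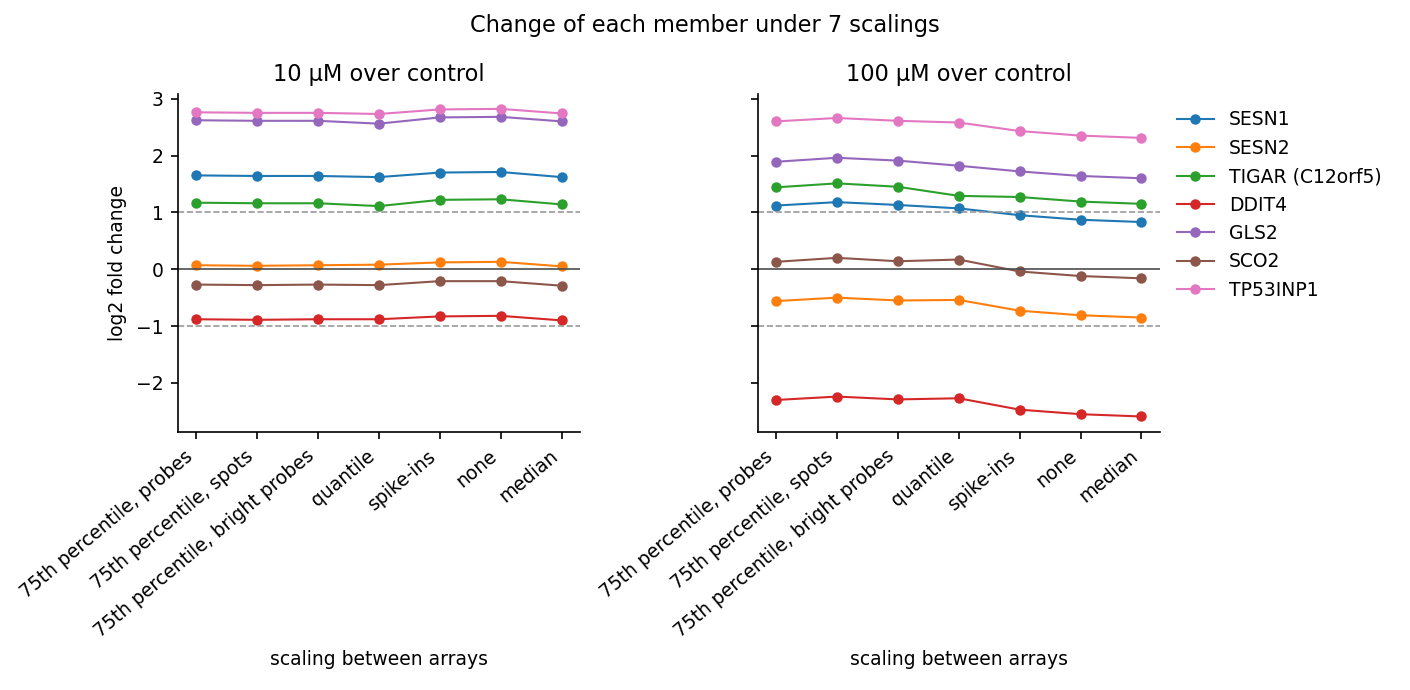
Log2 fold change over control of each of the 7 measured genes under 7 ways of scaling the arrays to each other, at 10 μM (left) and 100 μM (right); dashed lines mark a 2-fold change. At 10 μM the lines are nearly flat, and at 100 μM SESN1 falls below the upper dashed line and SCO2 below 0 with spike-in, median or no scaling.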

How the data were processed

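The 3 arrays were 1-color Agilent arrays, 1 for each condition, read with Feature Extraction (version 10.7.3.1) at default settings, per the labels and the methods. The authors deposited the intensity of each spot, background-subtracted and detrended within the array but not scaled between arrays. A deposited table of the series held the same 133485 values. Probe positions are those of the files (hg18). Promoter sequences and current gene symbols came from RefSeq (GRCh38.p14).

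Intensities were averaged on the log2 scale over the spots of a probe without outlier spots, and the 75th percentile over the non-control probes of the array, each counted once, was subtracted. The brightest probe stood for its gene. A gene was counted where it differed by more than 2-fold and the brighter signal was well above background. A dimmer signal not well above background was raised to the lowest signal well above background, which gives a lower bound. The spot SD came from a probe's own spots, or otherwise from the 50 repeated probes nearest in signal. The steps were tested on simulated arrays.

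The genes, the pathway lists and the tests were chosen with earlier results of these data known. Named are all 8 genes, in each list the 2 highest and 2 lowest genes of each dose over control, and the 2 nearest genes to each gene. Some genes that this rule selects are not reported here. Other genes past 2-fold were named after their values were seen. The dimmer TP53INP1 probe was added as an alternative after seeing the data. Alternatives were 6 other scalings, normexp correction (offset 50), other treatments of dim signals, outlier spots and multiple probes, the series table, and thresholds of 1.5-fold and 3-fold. Python 3.11.15, pandas 2.3.3, numpy 2.4.6, matplotlib 3.10.9, R 4.3.3 and limma 3.58.1 were used.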

Additional observations from a re-analysis of the deposited data

How the results depend on the processing

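No log2 fold change of more than 2-fold among the 7 genes changed sign under any alternative. Of 252 values of these genes under alternatives, 191 moved by less than the spot SD and 61 by more, and of 360 list medians, 277 and 83. Many of these values could not move, so the tally does not measure robustness. The series table held the same values, and the treatments of dim signals left the 7 genes unchanged. Averaging over probes could alter TP53INP1 alone. The number of genes more than 2-fold higher at the high dose, 4, became 2 with normexp background correction, 2 at a 3-fold threshold and 3 with no, median or spike-in scaling, where SESN1 fell under 2-fold. Over all genes the share fell too, from 6.76% to 2.27% with normexp and to 3.75%, 3.47% and 4.43% with no, median and spike-in scaling. At the low dose 4 became 3, without TIGAR, with normexp correction and at 3-fold. The share of all genes there fell from 3.37% to 1.51% with normexp correction. For the low dose over the high dose, 1 gene became 2 without scaling, 3 at a 1.5-fold threshold and 0 at 3-fold. The share of all genes there rose from 3.63% to 5.97% without scaling. Shares of all genes at the other thresholds were not computed. At 1.5-fold, 1 gene, DDIT4, was lower with 10 μM than in control. By construction, the thresholds count more or fewer genes, and every scaling except quantile normalization shifts all genes of an array alike. The cause of the remaining changes was not tested. With the dimmer TP53INP1 probe, chosen after seeing the data, the numbers higher over control stayed at 4. No paired analysis was possible because there was only 1 array per dose. Signals near background limit SESN3, and the number of arrays limits the precision of all values.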
